A study of Mus musculus with 6 samples.

Results

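The WNT negative feedback genes examined here were 9 mouse genes, Axin1, Axin2, Nkd1, Nkd2, Notum, Dkk1, Rnf43, Znrf3 and Sp5, taken by symbol from the 51912 gene rows of an RNA sequencing table. Each had exactly 1 row, all 9 are protein-coding in the GENCODE M21 annotation, and 4 of them (Axin2, Notum, Rnf43 and Znrf3) lie on chromosome 11. The cells were R1 mouse embryonic stem cells, an established line, grown in 2iLIF medium, which combines LIF with blockers of the kinases GSK3 and MEK, and then moved to serum-free N2B27 medium with 100 ng/ml FGF2. One group was collected after 24 h in FGF2 and the other after 48 h, with 3 libraries each, and both groups share the line, the medium, the FGF2 dose and the earlier growth in 2iLIF. Cells still in 2iLIF, or in N2B27 without FGF2, were not analysed here, so the comparison covers the second day after the GSK3 inhibitor was withdrawn and cannot separate FGF2 from the change of medium. The labels do not say whether replicates were separate cultures, and the p-values measure only the spread between these libraries.

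In the canonical WNT pathway, ligands bind Frizzled and LRP receptors and stop a destruction complex, built on the AXIN scaffolds and containing GSK3, from marking beta-catenin for degradation. Beta-catenin then enters the nucleus and activates genes with TCF and LEF factors. Several of those genes encode inhibitors of the pathway, so their transcripts are widely used as readouts of its activity, and inhibition of GSK3 in 2iLIF acts at the destruction complex itself. In mouse embryonic stem cells, this inhibition helps to hold the naive state.

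Levels are given as CPM, counts per 1000000 counts of the scaled library total. Of the 9 genes, 6 had enough counts to be tested, and 5 of these changed between 24 h and 48 h (adjusted p under 0.05, quasi-likelihood test of edgeR). Over all 14889 tested genes 62.8% changed, so most genes did so in this comparison and the count of members is to be read against that share. The 24 h and 48 h values did not overlap for these 5 members, as for 66.9% of all tested genes. Of the members, 3 fell (Notum, Axin2 and Axin1, where 31.9% of all tested genes fell) and 2 rose (Nkd1 and Nkd2, where 30.9% rose). Notum, Axin2 and Nkd1 passed the test with a fitted change of at least 2-fold, as did 11.2% of tested genes. The median size of change over the 6 members was 0.87 on the log2 scale, against 0.26 over all tested genes, and the signed medians were -0.02 and -0.01. Because the members were chosen with earlier results of these data known, these contrasts with all tested genes are descriptive and were not tested. In bulk RNA, fewer cells with a transcript and less of it per cell cannot be told apart.

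**Figure D1:**
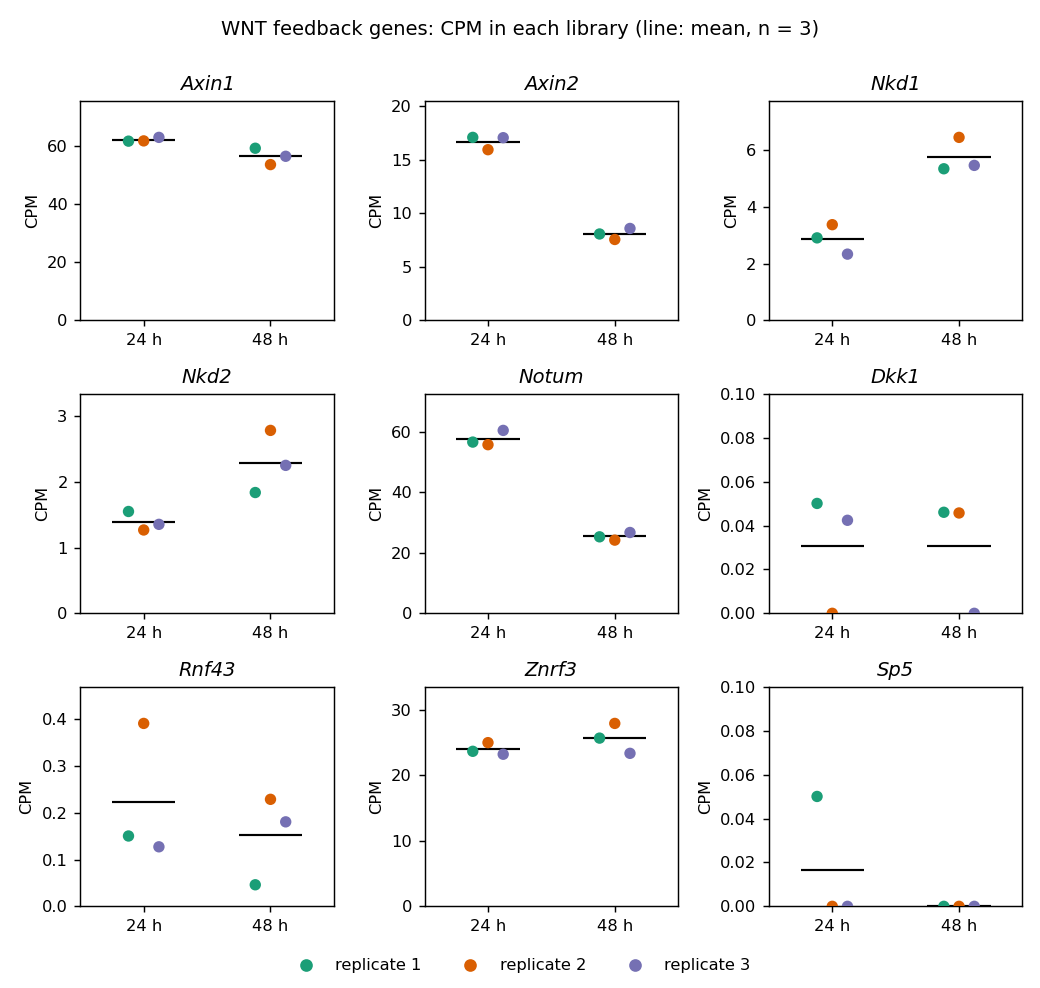
CPM (vertical axes, each from 0 and with its own range) of the 9 WNT feedback genes at 24 h and 48 h, with 1 point per library coloured by replicate number and a line at the mean of 3 libraries. Notum and Axin2 were lower at 48 h in every library, Nkd1 and Nkd2 were higher, and Dkk1 and Sp5 lay at or near 0 throughout.

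Axin1 and Axin2 encode the scaffolds on which the destruction complex assembles. Axin1 is broadly expressed, whereas Axin2 is a direct beta-catenin target and a standard reporter of WNT activity. Axin2 (ENSMUSG00000000142; GRCm38 chr11:108920349-108950783, plus strand) measured 17.1, 15.9 and 17.04 CPM in the 24 h libraries and 8.06, 7.54 and 8.57 CPM in the 48 h libraries. Every 48 h value lay well below every 24 h value. The means were 16.7 ± 0.66 and 8.06 ± 0.51 CPM (SD, n = 3 each), which is -1.05 on the log2 scale (SE 0.08, adjusted p = 8.39e-09), or 2.07-fold lower at 48 h. Axin1 (ENSMUSG00000024182; GRCm38 chr17:26138688-26195811, plus strand) measured 61.7, 61.8 and 63 CPM at 24 h and 59.2, 53.6 and 56.5 CPM at 48 h. The ranges were separate but close, and the fall was much smaller than that of its paralog, at -0.14 on the log2 scale (SE 0.04, adjusted p = 0.00543).

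Because a ratio of transcripts within a library does not depend on how the libraries are scaled, the paralogs were also set against each other. The log2 ratio of Axin2 to Axin1 counts was -1.85, -1.95 and -1.88 at 24 h and -2.88, -2.83 and -2.72 at 48 h. The mean ratio differed by -0.91 (48 h minus 24 h), several times the SD of 0.05 at 24 h and 0.08 at 48 h. The exact permutation test, two-sided, returned p = 0.1 (0.3 adjusted over 3 paralog pairs), which is the lowest p possible with 3 libraries on each side, so this test cannot pass 0.05.

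**Figure D2:**
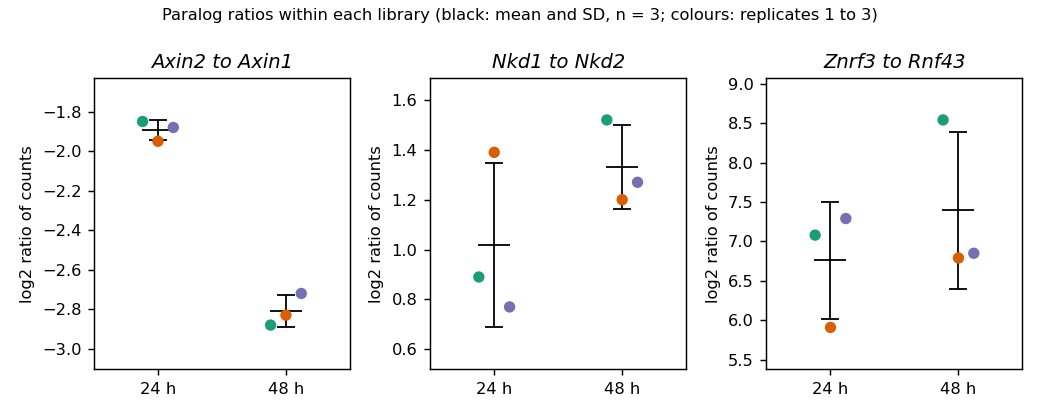
Log2 ratio of the counts of 3 paralog pairs within each library (vertical axes, each with its own range not starting at 0) at 24 h and 48 h, with 1 point per library and the mean and SD of 3 libraries in black. The Axin2 to Axin1 ratio separated the times without overlap, while the Nkd1 to Nkd2 and Znrf3 to Rnf43 ratios overlapped.

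Nkd1 and Nkd2 encode the Naked cuticle proteins, which bind Dishevelled inside the cell and dampen WNT signalling. Both rose, against the direction of Axin2. Nkd1 (ENSMUSG00000031661; GRCm38 chr8:88521354-88594884, plus strand) measured 2.9, 3.37 and 2.33 CPM at 24 h and 5.34, 6.45 and 5.46 CPM at 48 h. The lowest 48 h library was above the highest 24 h library. Its mean went from 2.87 ± 0.52 to 5.75 ± 0.61 CPM (SD, n = 3), which is 1.01 on the log2 scale (SE 0.15, adjusted p = 1.44e-05).

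Nkd2 (ENSMUSG00000021567; GRCm38 chr13:73818534-73847631, minus strand) was the lowest of the tested members, with 26 to 32 counts in the 24 h libraries and 40 to 61 in the 48 h libraries. It measured 1.55, 1.27 and 1.36 CPM at 24 h and 1.84, 2.79 and 2.26 CPM at 48 h. The groups did not overlap, but the 48 h libraries were spread widely and replicate 2 was the highest. The log2 fold change was 0.72 (SE 0.21, adjusted p = 0.00757). Without replicate 2 of 48 h it was 0.56 and no longer passed the test (adjusted p = 0.0529, the highest over the 15 alternative fits, in which the lowest was 0.00396). The log2 ratio of Nkd1 to Nkd2 ranged from 0.77 to 1.39 at 24 h and from 1.2 to 1.52 at 48 h, a mean difference of 0.31 with overlapping ranges (exact permutation p = 0.3, adjusted 0.4). With 3 libraries on each side this exact permutation test cannot go below p = 0.1, so it does not show whether the rises of these paralogs differed.

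Notum encodes a secreted enzyme that removes the lipid from WNT ligands and so inactivates them outside the cell. It showed the steepest fall of the tested members. Notum (ENSMUSG00000042988; GRCm38 chr11:120653788-120661175, minus strand) measured 56.6, 55.7 and 60.4 CPM at 24 h and 25.3, 24.2 and 26.7 CPM at 48 h. All 48 h libraries were below all 24 h libraries by a wide margin. The log2 fold change was -1.18 (SE 0.05, adjusted p = 1.69e-12), or 2.27-fold lower, from 57.6 ± 2.52 to 25.4 ± 1.27 CPM (SD, n = 3).

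Notum and Axin2, both known targets of beta-catenin, were also set against each other. Their log2 ratio, chosen for description after the values were seen, was 1.73, 1.81 and 1.83 at 24 h and 1.65, 1.68 and 1.64 at 48 h, a shift of -0.13. Exons of Notum overlap those of 2 opposite-strand genes, Notumos and Myadml2os, and exons of Axin2 overlap those of Gm11670, in the GENCODE M21 annotation. Whether the counting used strand is not given in the sources used here. Notumos held 36, 37 and 51 counts at 24 h and 21, 21 and 22 at 48 h, against 1130 to 1426 and 529 to 592 counts of Notum. Myadml2os and Gm11670 held at most 1 count in a library. The counts of all 9 members were whole numbers throughout, within 0.001 of a count, so no reads divided with similar genes were seen.

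Rnf43 and Znrf3 encode paralogous membrane ubiquitin ligases that remove Frizzled receptors from the cell surface, an activity that R-spondins block. The pair was represented almost entirely by Znrf3. Znrf3 (ENSMUSG00000041961; GRCm38 chr11:5276324-5444847, minus strand) measured 23.6, 24.95 and 23.2 CPM at 24 h and 25.6, 27.9 and 23.3 CPM at 48 h. The ranges overlapped and the log2 difference of 0.10 (SE 0.06, adjusted p = 0.193) did not pass the test, with a 95% interval from -0.04 to 0.24. Without replicate 3 of 48 h it was 0.16 (adjusted p = 0.035), and over the 15 alternative fits the adjusted p ranged from 0.035 to 0.66.

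Rnf43 (ENSMUSG00000034177; GRCm38 chr11:87662722-87735539, plus strand) had 3, 8 and 3 counts in the 24 h libraries and 1, 5 and 4 in the 48 h libraries, too few to be tested. Its pooled level was 0.219 CPM at 24 h (exact Poisson 95% interval 0.12 to 0.367, covering counting error only) and 0.152 CPM at 48 h (0.0729 to 0.28). The intervals overlapped, and no difference was detectable at this depth. With no filter on low counts its log2 fold change was -0.52 (SE 0.75, adjusted p = 0.618). The log2 ratio of Znrf3 to Rnf43 lay between 5.91 and 7.29 at 24 h and between 6.79 and 8.54 at 48 h (exact permutation p = 0.6, adjusted 0.6).

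Dkk1 encodes a secreted antagonist that binds LRP receptors, and Sp5 encodes a zinc finger repressor that is among the genes most directly induced by beta-catenin. Neither was detected beyond single reads. Dkk1 (ENSMUSG00000024868; GRCm38 chr19:30545863-30549665, minus strand) had 1, 0 and 1 counts at 24 h and 1, 1 and 0 at 48 h. Sp5 (ENSMUSG00000075304; GRCm38 chr2:70474923-70477729, plus strand) had 1 count in replicate 1 of 24 h and 0 in the other 5 libraries. The upper limit of the pooled level (exact Poisson 95% interval, counting error only) was 0.113 CPM at 24 h and 0.11 CPM at 48 h for Dkk1 and 0.087 CPM at 24 h for Sp5. For Sp5 at 48 h, with 0 counts, the upper limit of the same interval was 0.0561 CPM. A preset floor of 3 counts over the 3 libraries, a different limit, would be 0.0456 CPM. No fold change is given for either. Sp8, a paralog of Sp5 in the list of other WNT target genes below, was present and rose from 1.36 ± 0.48 to 6.32 ± 0.44 CPM (mean ± SD, n = 3; a log2 change of 2.24, SE 0.19, adjusted p = 2.19e-08).

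Promoters were searched for the TCF/LEF heptamer CTTTGNN, with A or T at both last positions, on both strands and in the 250 bases before each RefSeq start site (GRCm38.p6). The table used held windows of 6 members, Axin2, Dkk1, Nkd1, Nkd2, Rnf43 and Sp5, with 2 windows for Rnf43, and none was matched for Axin1, Notum and Znrf3. Dkk1 and Sp5, the members at or near 0 counts, each held 2 heptamers, which did not overlap. Over all 32851 promoter windows, 14.8% held at least 1 and 1.43% at least 2. The windows of Axin2, which fell, of Nkd1 and Nkd2, which rose, and of Rnf43 held 0. A match is a run of letters and not a known site, and these windows leave out distal elements and most intronic sequence. By GENCODE M21, the Nkd1 window (chr8:88527383-88527632) and an Rnf43 window (chr11:87699647-87699896) lie inside the gene but outside its exons. The other Rnf43 window lies in exons over all 250 bases. The 0 matches of Nkd1 and Rnf43 therefore do not cover the sequence before the GENCODE starts of these genes. The Sp5 and Axin2 windows are printed to set a target with matches and at most 1 count beside one with transcripts and no match, with the heptamers in capitals. This pair was picked for that contrast, and G and C make up 46.0% of the Sp5 window and 69.2% of the Axin2 window. Whether matches go with transcript level was not tested. Of Dkk1, only the stretch from its first to its last match is shown. GENCODE M21 starts this gene further upstream than RefSeq does, so 169 of the 250 bases of its window, and both heptamers with them, lie in an exon of that annotation.
Sp5 chr2:70474673-70474922 (plus strand): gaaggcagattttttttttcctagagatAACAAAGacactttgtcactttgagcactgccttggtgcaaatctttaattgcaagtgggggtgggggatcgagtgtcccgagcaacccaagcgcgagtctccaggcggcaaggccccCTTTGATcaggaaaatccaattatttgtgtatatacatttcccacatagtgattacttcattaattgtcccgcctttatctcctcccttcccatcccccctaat
Axin2 chr11:108920099-108920348 (plus strand): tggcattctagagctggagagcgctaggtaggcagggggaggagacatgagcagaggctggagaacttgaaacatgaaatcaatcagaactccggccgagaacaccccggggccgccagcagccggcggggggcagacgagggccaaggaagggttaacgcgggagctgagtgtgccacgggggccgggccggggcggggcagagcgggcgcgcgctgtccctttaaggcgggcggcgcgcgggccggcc
Dkk1 chr19:30549588-30549613 (minus strand): CTTTGAAatcccatcccggCTTTGTT

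In Sp5 the heptamers were CTTTGTT on the opposite strand, 222 to 216 bases before the start site, and CTTTGAT on the gene's strand, 104 to 98 bases before it. In Dkk1 both lay on the gene's strand, CTTTGAA at 117 to 111 bases and CTTTGTT at 98 to 92 bases before the RefSeq start site.

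Levels can be set side by side between genes only per length, so CPM were divided by the merged exon length of each gene in GENCODE M21. That length counts every annotated exon, and which transcripts were present was not determined. The order between genes therefore depends on it, unlike the change within a gene. At 24 h the length-scaled level was highest for Notum, at 23.9 ± 1.04 CPM per kb (SD, n = 3), followed by Axin1 at 16.2 ± 0.19. Znrf3 (3.03 ± 0.12) and Axin2 (3.03 ± 0.12) overlapped and were not ordered. Nkd1 (0.629 ± 0.11) and Nkd2 (0.289 ± 0.03) came below them. At 48 h Axin1 (14.7 ± 0.73 CPM per kb) stood above Notum (10.5 ± 0.53). Axin2, at 1.46 ± 0.09 CPM per kb, now lay under Znrf3 (3.25 ± 0.29) and overlapped Nkd1 (1.26 ± 0.13), with Nkd2 (0.476 ± 0.1) lowest. Rnf43, Dkk1 and Sp5 were under 0.06 CPM per kb in every library.

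**Figure D3:**
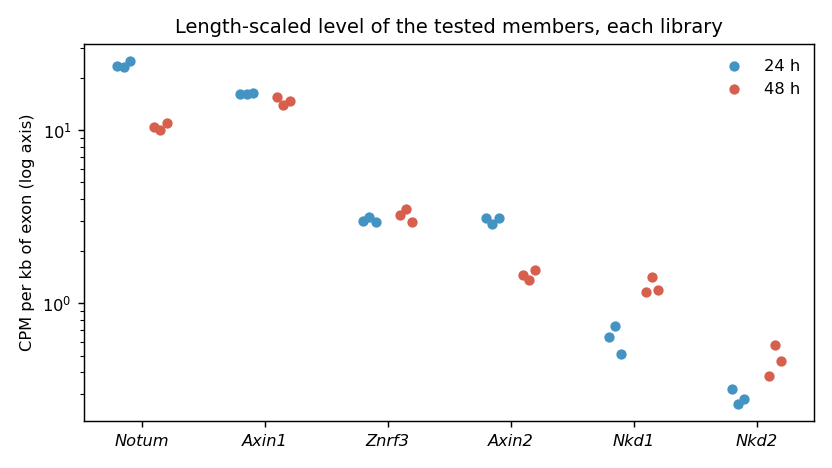
Level of the 6 tested members in CPM per kb of merged exon (log axis), with 1 point per library, 24 h in blue and 48 h in red. By this length, which counts every annotated exon, Notum stood above Axin1 at 24 h and below it at 48 h. The Axin2 values moved from the level of Znrf3 to that of Nkd1.

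The other genes of the pathway were described by 6 lists of 69 genes, ordered by role. Of these, 55 were tested and 41 changed, 20 higher and 21 lower at 48 h. These counts, and those of each list below, are to be read against the 62.8% of all tested genes that changed (30.9% higher, 31.9% lower). Their median log2 fold change was -0.02.

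R-spondins and their LGR receptors act on Rnf43 and Znrf3. Of 7 listed genes, 4 were tested, and 2 fell and 0 rose, where 31.9% of all tested genes fell and 30.9% rose. Lgr6 fell from 2.17 ± 0.11 to 0.746 ± 0.077 CPM (mean ± SD, n = 3; a log2 change of -1.54, SE 0.23, adjusted p = 2.14e-05). Rspo2 fell from 0.677 ± 0.22 to 0.167 ± 0.053 CPM, with 11, 19 and 13 counts at 24 h and 3, 5 and 3 at 48 h. It passed the filter on low counts only through its 24 h libraries. Lgr4, the receptor with the most counts, was at 147.3 ± 4.16 and 142.8 ± 1.86 CPM (adjusted p = 0.149). Lgr5, often used as a WNT target, had too few counts to be tested, at 0.033 and 0.0912 CPM.

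Among 15 Frizzled, LRP and Dishevelled genes, the proteins that receive WNT ligands and pass the signal on, 5 rose and 6 fell, with a median of -0.02. Some Frizzled receptors rose and others fell. Fzd7 rose from 53.5 ± 2.15 to 189.7 ± 7.43 CPM (mean ± SD, n = 3; a log2 change of 1.83, SE 0.04, adjusted p = 1.92e-16) and Fzd2 by 1.6 on the log2 scale. Fzd5 fell from 160.6 ± 9.05 to 71.3 ± 1.99 CPM (-1.17, SE 0.04, adjusted p = 1.1e-13) and Fzd10 fell by 1.9. Lrp5 and Dvl2 did not pass the test, with 95% intervals of the log2 fold change from -0.10 to 0.06 and from -0.08 to 0.05.

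The partners of AXIN in and around the destruction complex changed little in size. Of 10 genes, all tested, 4 rose and 3 fell, with a median of 0.01 and a median size of 0.12. Ctnnb1, which encodes beta-catenin, rose from 793.7 ± 6.86 to 900.3 ± 4.52 CPM (mean ± SD, n = 3; a log2 change of 0.18, SE 0.01, adjusted p = 1.88e-08). Tnks and Tnks2 encode tankyrases, which mark AXIN proteins for degradation, and they rose by 0.22 and 0.1. Gsk3b fell from 107.1 ± 2.41 to 91.3 ± 0.998 CPM (-0.23, SE 0.03, adjusted p = 2.79e-06), while Gsk3a was at 82.97 and 82.8 CPM. Apc2, at 2.05 ± 0.44 and 0.884 ± 0.31 CPM, had the largest change of the list at -1.22.

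Among 16 other extracellular inhibitors, 8 were tested, of which 4 fell and 1 rose, with a median of -0.92. Over all tested genes 31.9% fell and 30.9% rose, with a median of -0.01. Sfrp5, called lower, passed the filter on low counts only through its 24 h libraries. Sfrp1, a secreted Frizzled-related decoy, fell from 179.1 ± 4.87 to 52.5 ± 2.56 CPM (mean ± SD, n = 3; a log2 change of -1.77, SE 0.03, adjusted p = 1.92e-16). Apcdd1, a membrane inhibitor of WNT reception, fell by 1.17 and Dkk3 by 0.9 on the log2 scale. Sfrp2 went the other way, from 5.29 ± 0.31 to 10.9 ± 0.79 CPM (1.04, SE 0.10, adjusted p = 8.92e-08). Dkk2, Dkk4 and Cer1 had 0 counts in all 6 libraries, which allows up to 3 counts over each time.

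Of the 12 TCF/LEF factors and their co-regulators, all tested, 5 rose and 6 fell. Lef1 had the largest rise of the 6 lists, 3.13 on the log2 scale (SE 0.05, adjusted p = 1.6e-17), and Tcf7 rose by 0.26. The co-repressor genes Tle3 and Tle4 moved oppositely, at -0.48 and 0.50.

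Of 9 other textbook WNT targets, 6 were tested, and 5 rose and 0 fell, with a median of 0.52. Over all tested genes 30.9% rose and 31.9% fell, with a median of -0.01, and 6 genes are few to set against these shares. Myc rose from 19.8 ± 0.55 to 30.5 ± 0.89 CPM (mean ± SD, n = 3; a log2 change of 0.62, SE 0.05, adjusted p = 2.48e-08), and Ccnd1 rose from 179.9 ± 3.48 to 241 ± 6.44 CPM (0.42, SE 0.02, adjusted p = 2.18e-10). Both genes also respond to many other signals. The mesodermal and posterior targets T, Cdx1 and Cdx2 were not tested, each with a mean of at most 0.106 CPM at either time. Cdx4 was tested and rose from 0.368 ± 0.16 to 0.76 ± 0.072 CPM (a log2 change of 1.01, SE 0.38, adjusted p = 0.0291). It had 8, 4 and 12 counts at 24 h and 18, 15 and 17 at 48 h. Cdx4 passed the filter on low counts only through its 48 h libraries, so its call leans on the time at which it was higher. Ascl2 was at 0.768 ± 0.28 and 0.624 ± 0.22 CPM (adjusted p = 0.479). The falls of Axin2, Notum and, to a small degree, Axin1 stood beside rises of Nkd1, Nkd2, Lef1, Sp8, Myc and Ccnd1 in the same libraries. Other pathway genes fell, among them Lgr6, Fzd5, Sfrp1 and Apcdd1, and over the 6 lists 20 genes rose and 21 fell. By the GENCODE M21 models, Fzd5, Dvl2, Apc2, Gsk3a, Ctnnb1, Tnks, Sfrp2, Lef1 and Ccnd1 each share exonic bases with an antisense neighbour, whose reads cannot be told apart from theirs unless counting used strand. The counts of these genes were whole numbers in every library, whereas those of Tle4 were fractional.

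**Figure D4:**
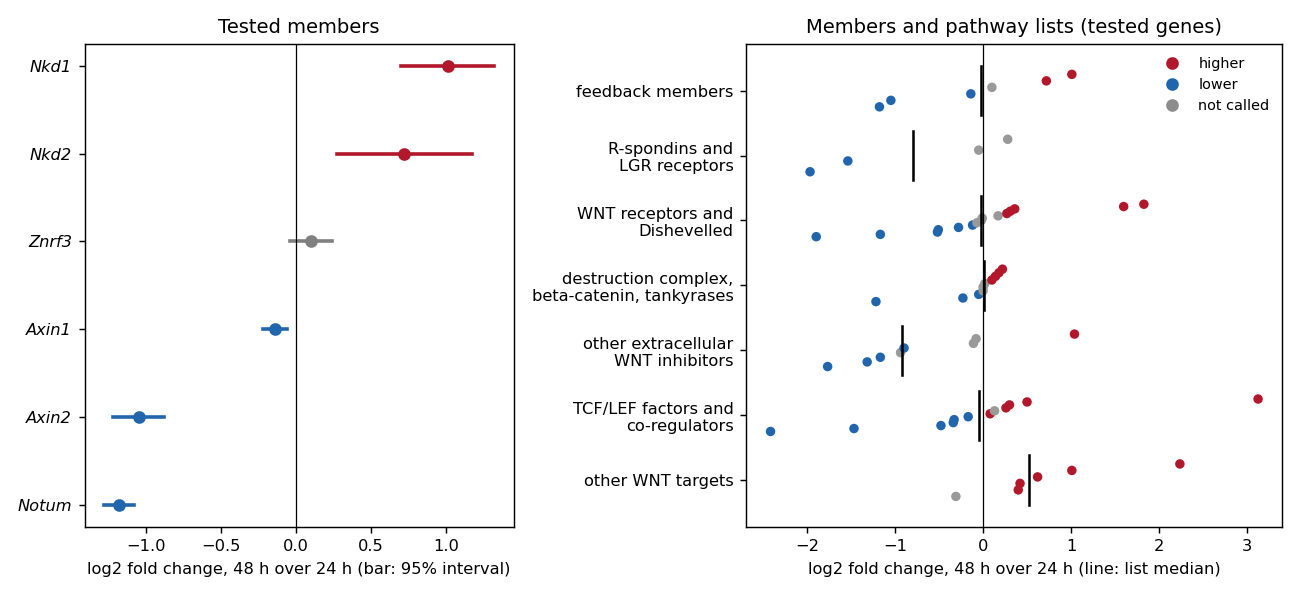
Left, log2 fold change (48 h over 24 h, horizontal axis) of the 6 tested members with its 95% interval; right, the same quantity for the tested genes of the members' list and of 6 pathway lists, 1 point per gene, with a black line at each list's median. Colours give the call at an adjusted p under 0.05 (red higher, blue lower, grey not called); members lie between -1.18 for Notum and 1.01 for Nkd1.

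As a description of pattern, log2 CPM across the 6 libraries was correlated with that of Axin2 and Nkd1 over genes averaging 5 CPM or more. Because the points fall into 2 times, any gene with a clear change in the same direction scores high, and 1905 of 10427 genes reached a Pearson r of 0.95 with Axin2 and 1043 of 10428 with Nkd1. Among the genes most like Axin2 were Ctnnd2 (0.9999) and Agtpbp1 (0.9993). Ctnnd2, which encodes delta-catenin, went from 8.28 ± 0.36 to 4.01 ± 0.25 CPM (SD, n = 3). Among those most like Nkd1 were Hlcs (0.9995) and Tcf7 (0.9984), whose log2 fold changes of 0.39 and 0.26 were smaller than that of Nkd1.

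Cell state markers moved in the same libraries, and their part in these results was not tested. The summed level of 6 naive pluripotency markers, all of which fell, went from between 2562 and 2702 CPM at 24 h to between 883 and 941 CPM at 48 h. The summed level of 4 formative markers, all of which rose, went from between 188.6 and 213 to between 1706 and 1741 CPM. Dnmt3b, whose counts were fractional, made up most of this sum at both times (137 ± 10 and 1390.5 ± 14.95 CPM, SD, n = 3). General pluripotency markers summed to between 1999 and 2015 CPM at 24 h and between 2260 and 2300 CPM at 48 h, with 2 of these 4 genes higher and 2 lower. Lin28a rose from 192 ± 7.83 to 562.8 ± 4.86 CPM, whereas Pou5f1 and Sox2, present in every library, fell by 0.07 and 0.37 on the log2 scale. Of 4 neural markers, 3 rose and 1 fell, and their sum went from at most 54.5 to at least 92.3 CPM. Primitive endoderm markers summed to at most 10.6 CPM and primitive streak markers to at most 18.4 CPM, with Gata6, Sox17, Pdgfra, Mixl1, Gsc, Mesp1 and Foxa2 under 1 CPM in every library. Eomes, which was called lower (16.1 ± 1.35 to 13.2 ± 1.05 CPM, SD, n = 3), made up most of the streak sum. Most of the endoderm sum came from Gata4, called lower (5.84 ± 0.86 to 2.25 ± 0.22 CPM), and Dab2, not called (2.83 ± 0.31 and 2.52 ± 0.25 CPM). Libraries held 19574969 to 23133148 estimated counts.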

How the data were processed

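Messenger RNA of 6 libraries was compared, 3 per time, grouped by their titles. The authors deposited estimated counts per gene from RSEM, not scaled for depth or length. RSEM 1.3.0, STAR 2.5.2, cutadapt 1.9.1 and GRCm38 are named in the submitters' processing notes; the annotation, strand setting and filters are not given in the sources used here. Every column matched 1 sample title. Symbols from GENCODE M21 matched 51633 of 51912 identifiers.

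Counts were rounded, filtered with filterByExpr (minimum count of 10), scaled by TMM and tested with edgeR 4.0.16 (quasi-likelihood test, R 4.3.3). The time point was the single term, with Benjamini-Hochberg adjustment over 14889 genes. This step was run on simulated counts in which a small share of genes changed, up and down alike. Most genes changed in these data, so the simulation does not check the scaling or the error rate in that setting. A gene is called changed at an adjusted p under 0.05. Of the listed genes called, Rspo2, Sfrp5 and Tle2 passed the filter only through their 24 h libraries, and Cdx4 and Zic1 only through their 48 h libraries. Their calls therefore lean on the time at which they were higher. Standard errors are the fold change over the square root of F. Ratios used counts plus 0.5, and correlations used log2 CPM with a prior count of 2. Alternatives, including DESeq2 1.42.0 and limma 3.58.1 (voom), are listed in the closing section. The members and lists were chosen with earlier results of these data known. Named were all 9 members, genes of the pathway lists, and the 3 genes most like Axin2 and Nkd1, of which some are not reported here.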

Additional observations from a re-analysis of the deposited data

How the results depend on the processing

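Alternatives were RLE, upper quartile and library-size scaling, 2 other filters on low counts, DESeq2, limma voom, unrounded counts, a replicate block, an adjusted p under 0.01 and leaving out each library. The 6 tested members kept their direction in all 15 alternative fits, and 88 of 90 values kept their side of the threshold; the exceptions were Nkd2 without replicate 2 of 48 h and Znrf3 without replicate 3 of 48 h. Without 1 library the count of members changed ranged from 4 to 6 and of members higher from 1 to 3, while 3 were lower each time. Over all genes the count was between 7810 (adjusted p under 0.01) and 9792 (every gene with a count). Under library-size scaling the median over all genes shifted from -0.01 to -0.07 (log2), 3779 genes rose and 5694 fell (against 4600 and 4745), and Axin1 was at -0.20. The Nkd1 to Nkd2 difference ranged from 0.19 to 0.50 and that of Znrf3 to Rnf43 from 0.06 to 0.93 without 1 library. Pathway genes changed numbered 35 to 41. Of the 41, Csnk1a1 and Bcl9l lost the call under RLE, Fzd8, Btrc and Tcf7l1 lost it under library-size scaling, and 0 changed direction in either. With the replicate block 9235 genes, 5 members and 40 pathway genes changed, and no member's call changed. Deviations from the mean of each time, over all tested genes, correlated at -0.05, -0.04 and -0.01 between same-numbered libraries. With 3 libraries per time and little spread between them, these correlations do not show whether same-numbered libraries shared a culture. The filter on low counts left Rnf43, Dkk1 and Sp5 untested; without it their adjusted p were 0.618, 0.992 and 0.521.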
